A study of Homo sapiens with 18 samples.

Results

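The genes described here are 10 markers of the gut lining, measured in human prostate cancer cell lines: CDH17, VIL1, DPP4 and MUC13 of the epithelial surface, the trefoil peptides TFF1, TFF2 and TFF3, the protein folding enzymes AGR2 and AGR3, and the membrane glycoprotein GP2. They were taken by symbol, as 10 of 20041 genes that the array's probes name, and are read by 12 probes. AGR2 and AGR3 have 2 probes each and every other gene has 1. The set was chosen by log2 changes and spreads that earlier results of the same arrays had shown: CDH17, VIL1 and TFF2 in 22Rv1 cells with doxycycline, GP2 in the knockdown, and AGR2 for its spread between arrays of the same group. Values of the members in these comparisons are therefore descriptions. Whether a member passed the threshold is reported, but no p-value is given for it and nothing is read from the counts.

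The lining of the gut is a single sheet of absorptive and secretory cells. Absorptive enterocytes carry a brush border of microvilli, built on bundled actin and covered with digestive enzymes and membrane-bound mucins, while goblet and other mucous cells release gel-forming mucins together with small, protease-resistant trefoil peptides that take part in repair of the mucosa. Galectin-4, a lectin encoded by LGALS4 that binds sugars on glycoproteins and glycolipids, is normally made by this epithelium. Prostate epithelium makes little of most of these products, although some prostate cancers secrete TFF3 and AGR2.

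RNA of 18 samples was read on Illumina bead arrays, 3 for each of 6 groups, to ask what happens when galectin-4 is made or removed. The established lines were 22Rv1 and LNCaP, each carrying a tetO-Gal4 construct, and 22Rv1-M4. The first pair of groups was 22Rv1 tetO-Gal4 without doxycycline (Dox), labelled as control cells, and the same cells with Dox, labelled as expressing galectin-4. A matching pair was made in LNCaP tetO-Gal4 cells. The last pair was 22Rv1-M4 cells with a scramble hairpin (M4-shCtrl) and with a hairpin against galectin-4 (M4-shGal4). Cells of the Dox controls carried the construct too. Dox was in no group given to cells without it, so that a response to the drug itself and one to galectin-4 cannot be told apart. The labels do not name the dose or time of Dox, or whether a line is 1 clone, and do not say that replicates are separate cultures. Differences between groups are judged against the spread of these arrays alone, which may be technical.

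Levels are log2 values after background correction and quantile normalization. A probe counts as above background on an array where its deposited detection p-value is under 0.05. Between 41.9% and 45.1% of 47303 probes were above background on an array, and the lowest such log2 level lay between 4.67 and 4.75, so that values near or under these carry no order. A gene "passed" in a comparison where its p from limma, adjusted by Benjamini-Hochberg for the 13680 genes tested, was under 0.05. Of the 10 genes, 9 were bright enough to be tested and TFF1 was not. Among prostate markers, HOXB13 was above background on all arrays and KLK3 on every LNCaP array but on none of 22Rv1 or 22Rv1-M4. The arrays of 22Rv1 labelled with Dox go against that label on the targeted gene, as given next, and are called the Dox-labelled 22Rv1 arrays.

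LGALS4, read by 1 probe, was at log2 levels of 12.41, 12.46 and 12.46 in M4 scramble cells and 5.32, 4.79 and 4.87 in the knockdown, a 175-fold lower level. It was at 4.53, 4.64 and 4.57 in LNCaP without Dox, not above background, and at 5.73, 6.79 and 6.96 with Dox, at least 3.41-fold higher. In 22Rv1 it stood at 5.91, 5.96 and 5.84 without Dox and at 5.84, 5.68 and 6.00 on the Dox-labelled arrays, a log2 change of -0.06 (SE 0.21, adjusted p = 0.874, limma). Where this probe lies relative to the construct is not given in the sources used here. Directions given below for the Dox-labelled 22Rv1 arrays rest on that label.

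Promoter sequences from RefSeq (GRCh38.p14) matched 5 of the 10 genes by symbol: AGR2, AGR3, GP2, DPP4 and MUC13. All 5 are transcribed from the minus strand. Printed here are the 250 bases before the start of the 2 neighbouring AGR genes, of MUC13 and of GP2, because the first 3 were lower together on the Dox-labelled 22Rv1 arrays and GP2 had the largest change of any member. Capitals mark exact matches to the motifs searched on both strands, from 250 bases before to 50 after the start. The TATA box was searched as the letters TATAAA. The site of CDX, the caudal-type factors of the intestine, was searched as TTTATG. For HNF1, a factor of gut and liver epithelium, the half-site used was GTTAAT, and for HNF4, a nuclear receptor of the same tissues, it was CAAAGTCCA. The site of the FOXA factors of endoderm was searched as TGTTTAC.
AGR2, chr7:16805000-16805249: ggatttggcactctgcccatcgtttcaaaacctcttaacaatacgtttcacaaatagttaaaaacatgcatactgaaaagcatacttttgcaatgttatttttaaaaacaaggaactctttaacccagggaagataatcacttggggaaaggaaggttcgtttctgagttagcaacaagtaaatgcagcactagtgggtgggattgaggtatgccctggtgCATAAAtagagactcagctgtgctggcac
AGR3, chr7:16881984-16882233: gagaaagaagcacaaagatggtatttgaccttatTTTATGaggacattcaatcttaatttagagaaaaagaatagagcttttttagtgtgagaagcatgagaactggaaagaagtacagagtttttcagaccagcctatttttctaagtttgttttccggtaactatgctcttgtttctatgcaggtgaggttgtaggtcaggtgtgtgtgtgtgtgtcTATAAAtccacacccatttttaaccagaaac
MUC13, chr3:124934752-124935001: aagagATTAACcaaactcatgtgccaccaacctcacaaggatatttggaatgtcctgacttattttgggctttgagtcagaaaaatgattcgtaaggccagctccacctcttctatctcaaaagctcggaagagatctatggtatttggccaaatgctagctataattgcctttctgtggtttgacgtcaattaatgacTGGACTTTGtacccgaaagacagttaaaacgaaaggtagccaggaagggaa
GP2, chr16:20327514-20327763: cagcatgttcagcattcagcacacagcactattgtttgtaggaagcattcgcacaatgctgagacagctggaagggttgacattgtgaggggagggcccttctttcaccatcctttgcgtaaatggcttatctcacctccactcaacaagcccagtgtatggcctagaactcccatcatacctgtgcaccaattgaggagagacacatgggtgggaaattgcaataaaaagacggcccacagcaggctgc

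AGR2 held the CDX letters on the opposite strand at bases -29 to -24, and AGR3 held them at -216 to -211 beside a TATA box at -31 to -26. Among 35116 promoters of the same length, 10.6% held the CDX letters and 11.5% the TATA box. MUC13 had the HNF4 letters on the opposite strand at -51 to -43, found in 0.384% of all promoters, and the HNF1 half-site at -245 to -240, found in 6.88%. None of the matches overlapped another. The FOXA letters, present in 3.42% of promoters, were in none of the 5, and GP2 and DPP4 held no match to any motif. DPP4's promoter differed from the rest in make-up, with 75.0% G and C and 34 CpG pairs, against 38.0% to 50.7% and 1 to 6 pairs in the other 4 and medians of 58.7% and 14 over all promoters. A match is a run of letters and not a measured binding site.

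On the Dox-labelled 22Rv1 arrays, CDH17, VIL1, MUC13, AGR2 and AGR3 were lower, the trefoil gene TFF2 was higher, and DPP4, GP2 and TFF3 did not pass. Of the 9 genes tested, 5 passed as lower and 1 as higher, where 15.7% and 9.14% of all genes did (24.8% in either direction). Arrays of the groups did not overlap for 7 of the 9, against 38.9% of all genes. The median log2 change of the 9 was -0.67, beside -0.06 over all genes. CDH17, a cadherin that joins intestinal epithelial cells, lay at 7.73, 7.82 and 7.88 without Dox and at 5.63, 5.28 and 5.55 with it. Its change was -2.32 on the log2 scale (SE 0.16), 5.00-fold lower, and every Dox-labelled array was far below the controls. MUC13, a mucin anchored in the cell membrane, fell from 7.89, 8.03 and 7.76 to 5.60, 5.75 and 5.84, 4.49-fold lower (log2 change -2.17, SE 0.23). VIL1 encodes villin, the actin-bundling protein of microvilli. It fell from 6.72, 6.71 and 6.60 to 5.09, 4.78 and 5.38 (log2 change -1.59, SE 0.14), and its Dox-labelled arrays remained above background. DPP4, the brush border peptidase that clips dipeptides from peptide hormones, was at 5.97, 5.77 and 6.05 without Dox and 6.51, 6.15 and 6.21 with it. That difference of 0.36 (SE 0.15) did not pass, although the arrays did not overlap, and it passed with array weights (0.53). In bulk RNA such as this, fewer cells making a product and less RNA per cell cannot be told apart.

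TFF2, a trefoil peptide secreted by mucous cells of the stomach, was the 1 member that rose on the Dox-labelled 22Rv1 arrays. Its levels were 6.65, 6.84 and 6.78 without Dox and 8.59, 9.12 and 7.33 with it, a log2 change of 1.59 (SE 0.28) or 3.01-fold. The third Dox-labelled array was the lowest of its group and still above all controls. TFF3, the trefoil peptide of intestinal goblet cells, was not above background on any 22Rv1 array, between log2 levels of 4.47 and 4.69. TFF1, its stomach relative, was above background on 0 of 18 arrays in the series. The 3 trefoil genes lie next to each other on chromosome 21, and only TFF2 among them was above background in 22Rv1.

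AGR2 is a protein disulfide isomerase of the endoplasmic reticulum that mouse goblet cells need to make mucin, and AGR3 is its neighbour on chromosome 7 and closest relative. AGR2 was at 10.64, 10.86 and 10.76 in 22Rv1 without Dox and at 8.61, 8.84 and 7.68 on the Dox-labelled arrays, a log2 change of -2.38 (SE 0.38). Its dimmer probe gave 7.04, 7.19 and 7.19 without Dox, and was above background on 1 of 3 arrays with it, a change of -2.43 (SE 0.29). Both probes were lower, but the dimmer one reached background, so its size of change is cut off there. AGR3 was dim throughout: 5.16, 5.50 and 5.38 without Dox, above background on all 3 arrays, and 4.62, 4.98 and 4.43 with it, above background on 1. Its change was -0.67 (SE 0.15), and the second AGR3 probe was above background on no array of the series. In intensity before any correction, AGR2 fell from between 1761.8 and 1908.7 to between 300.3 and 538.4. The plot of levels on each array shows these groups side by side.

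**Figure D1:**
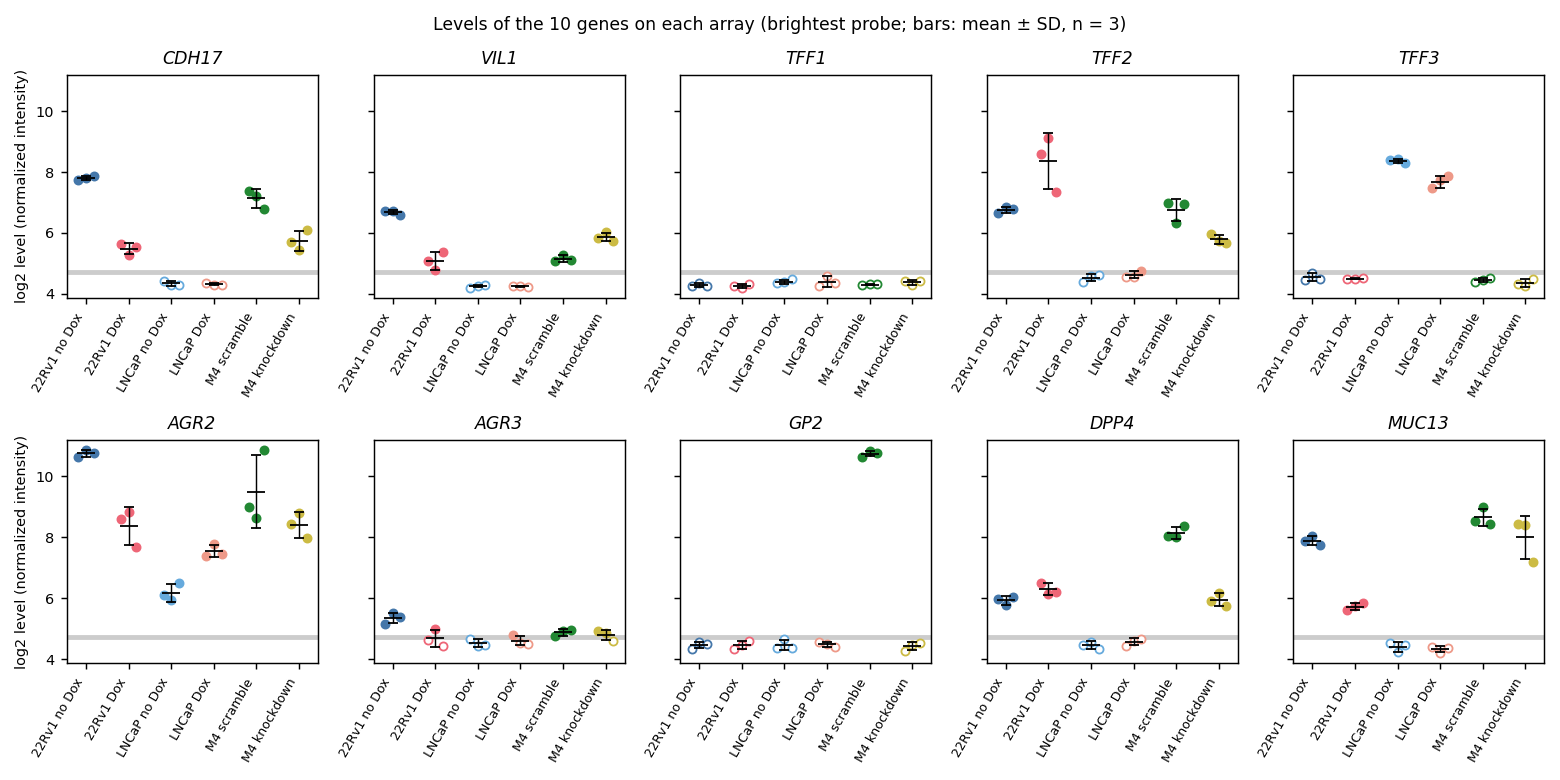
Log2 level (normalized intensity, vertical axis) of each of the 10 genes on each of 18 arrays in 6 groups, with the mean and SD of 3 arrays as bars. Filled points were above background and open points were not, and the grey band spans the lowest level above background on the arrays (4.67 to 4.75). CDH17, VIL1, DPP4, MUC13 and TFF2 were above background in 22Rv1 and 22Rv1-M4, TFF3 in LNCaP alone and GP2 in M4 scramble cells alone.

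In LNCaP cells the picture differed: most of the genes were not above background, and Dox went with a rise of AGR2 and a fall of TFF3. Of the 9 tested, 1 passed as higher and 1 as lower, where 10.9% and 17% of all genes did (27.8% in all), and arrays did not overlap for 2 of 9, against 44% of all genes. TFF3 was at 8.40, 8.42 and 8.29 without Dox and 7.47, 7.73 and 7.85 with it, a log2 change of -0.69 (SE 0.12) or 1.61-fold lower, with all Dox arrays below all controls. AGR2 was at 6.11, 5.93 and 6.49 without Dox and 7.40, 7.78 and 7.46 with it, a log2 change of 1.37 (SE 0.38) or 2.58-fold higher. AGR2's dimmer probe was above background on 0 of the 6 LNCaP arrays, so the rise was read by 1 probe. CDH17, VIL1, MUC13, DPP4, GP2 and AGR3 changed by -0.08 to 0.11, and apart from 1 AGR3 array none of these was above background on any LNCaP array. TFF2 was above background on 1 of the 6. AGR2's call in LNCaP was lost in 5 of 17 alternative settings, among them the deposited log2 matrix (0.76), the mean of both probes (0.63) and the removal of the main axis of variation within groups (0.03).

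That axis, the first component of the differences between arrays of the same group, held 24.8% of this variation. Its sign was set so that AGR2 loads as positive, and percentiles rank loadings with their sign. AGR2 had the highest loading on it of all 13680 genes, TFF2 was at percentile 99.8 and AGR3 at 88.8 (loading 0.0094). CDH17 (-0.0103, percentile 11.9) and VIL1 (-0.0075, percentile 21.3) had negative loadings and so ran against it. Scores of the arrays along it were 24.5 to 26.7 in LNCaP with Dox and -14.5 to -3.35 without, so that LNCaP groups differed along the axis as well as in AGR2. In 22Rv1 the controls were at -19.7 to -17.4 and the Dox-labelled arrays at -2.58, 18.2 and -30.3. The axis is built from differences within groups, and the loadings of AGR2 (0.041) and TFF2 (0.028) rank among the highest of all genes. A high loading means that a gene's level moves with the score within groups. The match of the last 3 scores with their AGR2 and TFF2 levels is therefore in part built in. M4 scramble arrays were at 4.93, -3.21 and 27.5, and the third of these had an AGR2 level of 10.86, against 9.00 and 8.62 on the other pair. What the axis stands for was not tested.

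**Figure D2:**
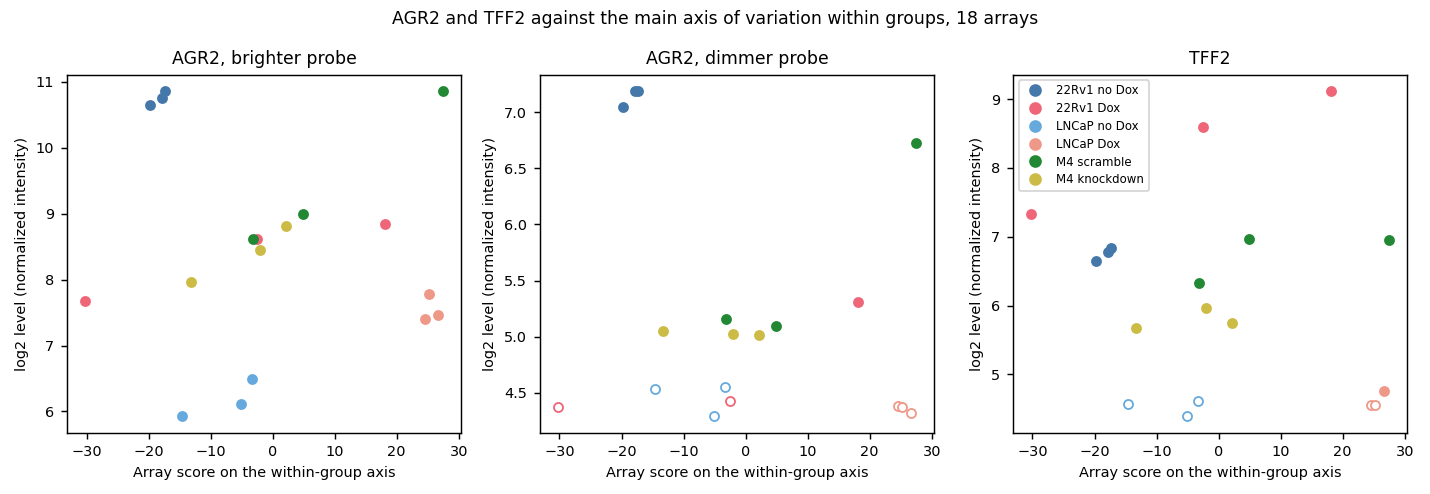
Log2 level (normalized intensity) of AGR2 by its brighter and its dimmer probe and of TFF2, against the score of each of 18 arrays on the main axis of variation within groups (no unit). Filled points were above background and open points were not. AGR2 and TFF2 load high on the axis, so that a match of their levels with the score within a group is in part built in. Their order did not follow the score in every group. The LNCaP Dox arrays lay at scores of 24.5 to 26.7.

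The change on the Dox-labelled 22Rv1 arrays, where LGALS4 did not rise, differed from the change with Dox in LNCaP for 7 of the 9 genes by the interaction term of the model, beside 18.8% of all genes. The difference was positive for 2 and negative for 5, where it passed as positive for 9.42% and as negative for 9.39% of all genes. In 22Rv1 minus LNCaP, the difference in log2 change was -3.75 (SE 0.54) for AGR2, -2.29 (SE 0.23) for CDH17, -2.09 (SE 0.32) for MUC13, -1.59 (SE 0.19) for VIL1 and -0.76 (SE 0.21) for AGR3. It was 1.49 (SE 0.39) for TFF2 and 0.63 (SE 0.17) for TFF3. AGR2 moved in opposite directions in the 2 lines by its brighter probe. CDH17, MUC13 and VIL1 were not above background in LNCaP, so that the probes could show no fall there. TFF2 and AGR3 were above background on 1 of the 6 LNCaP arrays each, and TFF3 on none of 22Rv1. The term also reuses the 22Rv1 changes by which CDH17, VIL1 and TFF2 were chosen, and is given as a description. DPP4 (0.24) and GP2 (-0.03) did not pass.

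In 22Rv1-M4 cells the knockdown of galectin-4 went with a GP2 signal no longer above background and lower levels of DPP4 and CDH17, while VIL1 was higher. Of 9 genes, 6 passed as lower and 1 as higher, where 10.3% and 13% of all genes did (23.3% in all), and arrays did not overlap for 5 of 9, against 37.2%. The median log2 change was -0.96, beside 0.02 over all genes. GP2, a glycoprotein of pancreatic zymogen granules and of the M cells that sample bacteria in the gut, lay at 10.64, 10.82 and 10.78 with scramble and at 4.27, 4.47 and 4.54 in the knockdown. Its log2 change was -6.32 (SE 0.13), at least 64.9-fold lower, and no knockdown array was above background. In deposited intensity the scramble arrays were at 1765.8, 2500.0 and 1649.8 and the knockdown arrays at 99.3, 101.6 and 107.6. DPP4 fell from 8.06, 8.01 and 8.38 to 5.92, 6.18 and 5.76, 4.59-fold lower (log2 change -2.20, SE 0.15). CDH17 fell from 7.39, 7.23 and 6.78 to 5.69, 5.45 and 6.10, 2.62-fold lower (-1.39, SE 0.16). VIL1, the other brush border gene, rose from 5.07, 5.27 and 5.13 to 5.83, 6.03 and 5.74, 1.64-fold higher (0.71, SE 0.14). For these 4 genes no array of one group reached the range of the other, and the calls held in 17 of 17 alternative settings.

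The other calls in the knockdown depended on single arrays or settings. TFF2 was at 6.97, 6.33 and 6.96 with scramble and 5.96, 5.74 and 5.67 in the knockdown, a log2 change of -0.96 (SE 0.28). Its arrays did not overlap, but the call was lost in 5 of 17 settings, including those without scramble replicate 1 (-0.85) and without scramble replicate 3 (-0.86). AGR2 was at 9.00, 8.62 and 10.86 with scramble and 8.44, 8.81 and 7.96 in the knockdown. The groups overlapped, the log2 change was -1.09 (SE 0.38), and without scramble replicate 3 it was -0.41 and did not pass. It was lost in 12 of 17 settings, also without knockdown replicate 1 (-1.11) and without knockdown replicate 3 (-0.87). With the replicate number as a block it was -1.09 and did not pass. The dimmer AGR2 probe gave a smaller change of -0.63 (SE 0.29), which did not pass among the 18408 probes tested one by one. Its knockdown levels, 5.01 to 5.05, were near background. MUC13 was at 8.54, 8.98 and 8.43 with scramble and 8.44, 8.39 and 7.19 in the knockdown, again overlapping (log2 change -0.65, SE 0.23). It was lost in 11 of 17 settings, among them without knockdown replicate 3 (-0.24), without scramble replicate 1 (-0.70) and without scramble replicate 2 (-0.48). AGR3 (-0.08) and TFF3 (-0.09) did not pass, and TFF3 was not above background on any array of the pair.

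**Figure D3:**
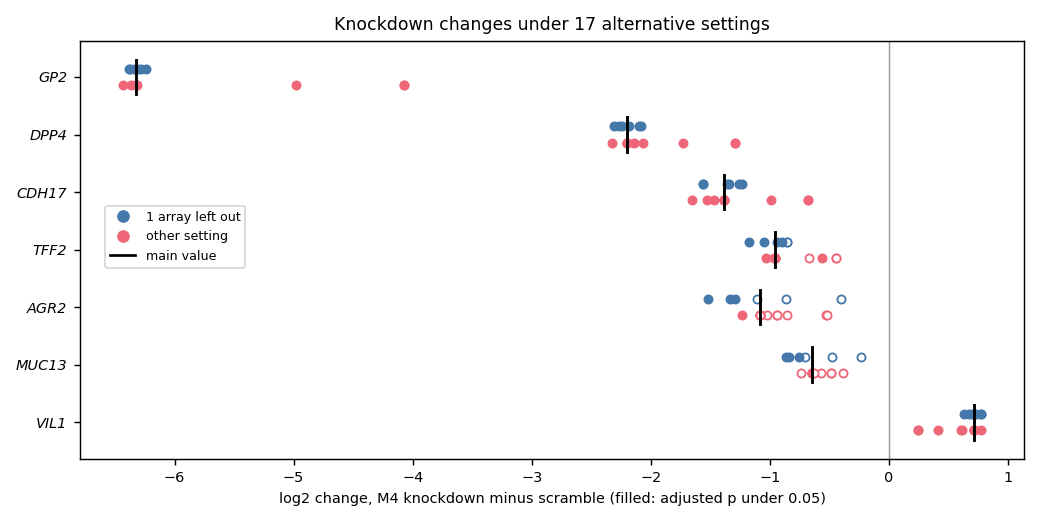
Log2 change of 7 genes between M4 knockdown and M4 scramble (horizontal axis) in the main result and in 17 alternative settings, with points for settings that leave out 1 array and for other settings. Filled points passed at an adjusted p under 0.05 and open points did not. GP2, DPP4, CDH17 and VIL1 stayed filled, whereas AGR2, MUC13 and TFF2 lost the call in 12, 11 and 5 settings.

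Without knockdown or Dox, M4 scramble cells differed from 22Rv1 tetO-Gal4 cells, among the 9 genes, most in GP2 and DPP4. The first are labelled with a scramble hairpin and the second with the tetO-Gal4 construct, so line and construct cannot be told apart. These comparisons share the 22Rv1 arrays without Dox with the Dox comparison, and the M4 scramble arrays with the knockdown comparison, so the values are not independent of those above. GP2 was between 4.34 and 4.56 in 22Rv1, not above background, and between 10.64 and 10.82 in M4 scramble cells, at least 66.7-fold higher. DPP4 was higher in M4 scramble by 2.22 on the log2 scale (SE 0.15), and VIL1 was lower by -1.52 (SE 0.14). CDH17 was lower too (-0.68, SE 0.16), while TFF2 changed by 0.00. Of the 9, 3 passed as higher and 4 as lower, beside 14.7% and 20.7% of all genes (35.4% in all), and arrays were apart for 6, against 49.8%. Calls for AGR2 (-1.26, SE 0.38), AGR3 (-0.47, SE 0.15) and MUC13 (0.76, SE 0.23) were each lost when some arrays were left out. AGR2 was at -1.02 without scramble replicate 1, at -0.83 without scramble replicate 2 and at -1.95, still passing, without scramble replicate 3. These are values of its brighter probe. The dimmer AGR2 probe gave -1.48 (SE 0.29) on all arrays, with the groups apart. AGR3 was at -0.39 and -0.45 without 22Rv1 replicates 2 and 3 and at -0.40 without scramble replicate 1, and MUC13 at 0.69 without 22Rv1 replicate 3 and 0.59 without scramble replicate 2. With the within-group axis removed, CDH17 (-0.39) and MUC13 (0.72) lost their calls, TFF2 (-0.80) gained one, and AGR2 moved to -2.40.

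LNCaP without Dox stood apart from 22Rv1 without Dox in nearly every gene. Of the 9, 7 passed as lower in LNCaP and 1 as higher, where 26.6% and 23.7% of all genes did (50.3% in all), and arrays were apart for 8, against 61.6%. AGR2 was 23.9-fold lower (log2 change -4.58, SE 0.38) and was the 1 gene of the 7 still above background. CDH17 was at least 8.48-fold lower, MUC13 at least 9.00-fold, TFF2 at least 4.10-fold, VIL1 at least 3.87-fold, DPP4 at least 2.31-fold and AGR3 at least 1.54-fold. TFF3 went the other way, at least 12.8-fold higher in LNCaP. Of the trefoil genes, TFF2 was above background in 22Rv1 and TFF3 in LNCaP.

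**Figure D4:**
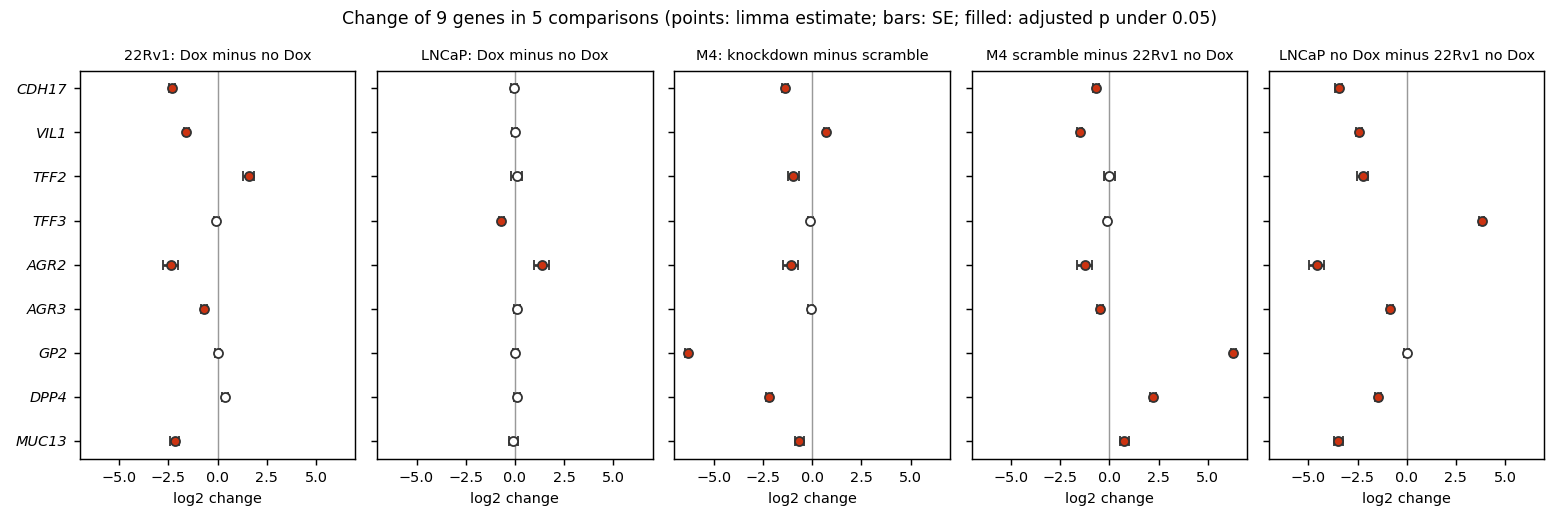
Log2 change (horizontal axis) of the 9 tested genes in 5 comparisons of 3 arrays against 3, with the SE of the limma estimate as bars. Filled points passed at an adjusted p under 0.05. CDH17, VIL1, AGR2 and MUC13 were lower on the Dox-labelled 22Rv1 arrays, GP2 and DPP4 were lower in the knockdown, and TFF3 alone was higher in LNCaP than in 22Rv1.

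Ordered by mean level, CDH17 was highest in 22Rv1 without Dox (7.81 ± 0.07, SD, n = 3), then in M4 scramble (7.13 ± 0.31), M4 knockdown (5.74 ± 0.33) and Dox-labelled 22Rv1 cells (5.49 ± 0.18), the last 2 of which overlapped. VIL1 ran from 6.68 ± 0.07 in 22Rv1 through 5.87 ± 0.14 in M4 knockdown to 5.16 ± 0.10 in M4 scramble, which overlapped Dox-labelled 22Rv1 (5.09 ± 0.30). For DPP4, M4 scramble (8.15 ± 0.20) stood above a block of 3 groups that overlapped each other from neighbour to neighbour: Dox-labelled 22Rv1 (6.29 ± 0.19), M4 knockdown (5.95 ± 0.21) and 22Rv1 without Dox (5.93 ± 0.15). MUC13 was at 8.65 ± 0.29 in M4 scramble, 8.01 ± 0.71 in the knockdown and 7.89 ± 0.14 in 22Rv1, with overlap between each neighbour and the next, and at 5.73 ± 0.12 on the Dox-labelled arrays. TFF2 was highest on the Dox-labelled arrays (8.35 ± 0.92), with 22Rv1 (6.76 ± 0.10) and M4 scramble (6.75 ± 0.36) overlapping below them and M4 knockdown lower (5.79 ± 0.15). By its brighter probe, AGR2 fell in order from 22Rv1 (10.76 ± 0.11) over M4 scramble (9.49 ± 1.20) to M4 knockdown (8.41 ± 0.42). Dox-labelled 22Rv1 (8.38 ± 0.62) and LNCaP with Dox (7.55 ± 0.20) came next, and each group to this point overlapped the next. LNCaP without Dox (6.18 ± 0.29) stood below all.

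Across the 18 arrays, which share lines and groups, GP2 had the highest r with LGALS4 of the 9 genes (Pearson r = 0.97), then DPP4 (0.81). GP2 was above background on M4 scramble arrays alone and TFF3 on LNCaP arrays alone, so their r values rest on those groups against the rest. With Dox in LNCaP, LGALS4 rose by 1.92 on the log2 scale and GP2 changed by 0.03, not above background. The genes most like GP2 were FOXA2, a transcription factor of endoderm, and LGALS2, another galectin (r = 0.99 each). DPP4 was most like ARL9 (0.97) and SOX9 (0.96), a factor of intestinal crypts. CDH17 ran with CDH2, which encodes N-cadherin (0.99), and VIL1 with CHGB, a protein of neuroendocrine granules (0.97). MUC13 ran with MPP1 and RNF144B (0.97 each), TFF2 with KRT17P5 and DBNDD2 (0.94 each), TFF3 with TBX1 and REPS2 (1.00 each), AGR2 with LINC00938 (0.96) and AGR3 with TMEM62 (0.90). Between members, likeness over arrays and within groups often differed. CDH17 and MUC13 had r = 0.85 over arrays and -0.43 over deviations from group means, CDH17 and AGR2 0.86 and -0.74, and GP2 and DPP4 0.81 and -0.18. AGR2 and AGR3 were alike both ways (0.84 and 0.43), and so were other pairs. Among them were AGR2 with TFF2 (0.60 and 0.59), AGR2 with DPP4 (0.63 and 0.51) and AGR3 with MUC13 (0.65 and 0.44). These are descriptions of 18 arrays and carry no test.

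Lists of other genes of the same cells were written with earlier results of these data known and are described by counts alone. Beside them stand the shares of all genes called. These were 24.8% on the Dox-labelled 22Rv1 arrays (9.14% higher, 15.7% lower) and 27.8% with Dox in LNCaP (10.9% and 17%). In the knockdown the share was 23.3% (13% higher, 10.3% lower). For M4 scramble against 22Rv1 it was 35.4% (14.7% and 20.7%), and for LNCaP against 22Rv1 50.3% (23.7% and 26.6%). Nothing particular to a list is read from its count. Of 34 brush border and enterocyte genes, 18 were tested. On the Dox-labelled 22Rv1 arrays 4 of these fell and 1 rose, with a median log2 change of -0.21. MYO1A, the myosin that ties microvillar actin to the membrane, fell by 2.63 (SE 0.16) and PLS1, an actin bundler that works beside villin, rose by 1.03 (SE 0.25; its other probe gave 0.67). In the knockdown 5 fell and 1 rose, with SLC5A1, the intestinal sodium-glucose transporter, at least 2.89-fold lower, MYO1A at -1.21 (SE 0.16) and APOA1, a lipoprotein made by gut and liver, at -1.85 (SE 0.17). MME, a surface peptidase, changed by -1.77 on the Dox-labelled arrays and -1.51 in the knockdown, but its second probe by 0.05 and -0.05. In LNCaP with Dox 1 rose and 1 fell. M4 scramble cells had 6 of the 18 higher than 22Rv1 and 3 lower, and LNCaP had 4 higher and 8 lower.

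Of 24 mucin and goblet cell genes, 16 were tested. Dox-labelled 22Rv1 arrays had 3 lower and 1 higher, with REG4, a secreted lectin of the gut, at least 4.45-fold lower, FCGBP, a protein of mucus, at -1.48 (SE 0.20) and SPDEF, the transcription factor of goblet cell maturation, at 1.04 (SE 0.15). SYTL2 changed by -3.53 by 1 probe and by -0.09 by its other. LNCaP with Dox had 3 lower and 0 higher, among them SPDEF (-0.50, SE 0.15). In the knockdown 4 were higher and 1 lower, with KLF4, a factor of terminal differentiation, at 0.89 (SE 0.16, and 1.21 by its other probe) and FCGBP at -0.86 (SE 0.20). M4 scramble cells had 0 higher and 2 lower than 22Rv1, and LNCaP had 0 higher and 4 lower. Among 20 other protein disulfide isomerases, the enzyme family of AGR2 and AGR3, 16 were tested. Of these, 8 fell and 0 rose on the Dox-labelled 22Rv1 arrays, among them TMX4 (-0.71, SE 0.13) and PDIA4 (-0.59, SE 0.13). In LNCaP with Dox 3 fell and 1 rose, and in the knockdown 4 fell and 1 rose, PDIA4 the most (-0.89, SE 0.13). M4 scramble had 0 higher and 3 lower than 22Rv1, and LNCaP had 6 higher and 7 lower.

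Markers of other cell types moved beside these genes, and their part in the results was not tested. Of 9 hepatocyte genes, 5 were tested, and the summed intensity of all 9 was 17465.9 to 19094.5 in 22Rv1 without Dox and 2188.8 to 2278.5 on the Dox-labelled arrays. Without Dox only ALB and TTR of the 9 were above background on all 3 arrays. Their mean log2 levels were 13.48 and 5.89, so that sum was mostly ALB signal. ALB, the serum albumin gene, fell by 5.56 (SE 0.17), and 2 of the 5 passed as lower and 0 as higher. In the knockdown 3 of the 5 were lower, including ALB (-0.97, SE 0.17) and APOA1 of the brush border list. The sum was 5284.9 to 6479.9 against 10618.6 to 12666.4 with scramble. Of 9 prostate luminal genes, all tested, 6 fell and 1 rose on the Dox-labelled arrays (summed intensity 1884.3 to 1976.6, against 3045.4 to 3343.5), and 4 rose and 1 fell in the knockdown (2624.1 to 3291.9, against 2023.4 to 3175.9). Of 6 leukocyte genes 4 were tested, and CD68 was higher on the Dox-labelled arrays (2.05, SE 0.37) and lower in the knockdown (-1.11, SE 0.37), but its second probe changed by -0.50 and 0.14. On the Dox-labelled 22Rv1 arrays CD14, CD2, CD68 and LYZ, 4 of the 6, were above background on all 3 arrays, where CD68 and LYZ were without Dox, and the summed intensity of the 6 was 2891.5 to 4493.0 against 2083.8 to 2186.1. In M4 cells CD14, CD68 and LYZ were above background on all arrays of both groups (2167.0 to 3520.0 with scramble and 1896.8 to 2162.5 in the knockdown). The other leukocyte genes on the array, PTPRC and CD3E, were not above background on all arrays of any group. Of 9 fibroblast genes 3 were tested, of which LUM (1.38, SE 0.30, and 0.76 by its other probe) and COL1A1 (0.41, SE 0.14) were higher on the Dox-labelled arrays and DCN was at least 2.68-fold lower in the knockdown. Of 6 neuroendocrine genes, all tested, CHGB fell on the Dox-labelled arrays (-1.76, SE 0.18) and rose in the knockdown (1.58, SE 0.18). It alone passed, and 5 did not pass in either comparison. CHGA was above background on all 3 Dox-labelled 22Rv1 arrays, but not on all 3 without Dox.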

How the data were processed

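Per the labels' protocols, a Zymo kit gave the RNA, its quality was read on an Agilent Bioanalyser, and an Ambion kit made biotinylated cRNA. The authors deposited linear intensity values with no background subtracted and a detection p-value for each of 47303 probes on 18 arrays. They also deposited a matrix of log2 values, of which 851340 of 851454 were within 0.01 of quantile-normalized log2 intensities without background correction, while 114 were not (largest difference 1.82). The scanner software is not given in the sources used here.

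Intensities were background-corrected and quantile-normalized with neqc (limma 3.58.1, R 4.3.3, offset 16). A probe was kept if 3 or more arrays had it at a detection p-value under 0.05. GEO's platform annotation gave 1 gene to 30103 probes, several to 8 and none to 17192, and no symbol changed on matching Entrez IDs to current names. The brightest probe stood for a gene, leaving 13680 genes. A single limma model with 6 group means (12 residual degrees of freedom) gave log2 changes, tested two-sided with Benjamini-Hochberg adjustment over all genes. A fold against a group with no array above background is a lower bound. Normalized log2 differences of dim genes understate changes. The number of arrays limits the precision.

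The members and the 13 gene lists were chosen with earlier results of these data known. Named besides the members were LGALS4, prostate markers, up to 4 called genes per list and comparison whose arrays did not overlap, by size of change, and the 2 genes most like each member. PTPRC and CD3E were added because they define a marker list. Alternatives covered background correction, normalization, offset, filters, probe choice, the deposited matrix, array weights, a replicate block, the within-group axis and leaving out each array.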

Additional observations from a re-analysis of the deposited data

Results flagged for a closer look

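For 7 of the 9 genes tested, the change on the Dox-labelled 22Rv1 arrays differed from that with Dox in LNCaP by the interaction term, where 18.8% of all genes did. As 22Rv1 minus LNCaP on the log2 scale, the difference was -3.75 for AGR2, -2.29 for CDH17, -2.09 for MUC13, -1.59 for VIL1, -0.76 for AGR3, 1.49 for TFF2 and 0.63 for TFF3. CDH17, MUC13 and VIL1 were not above background on any LNCaP array, and TFF3 on none of 22Rv1. TFF2 and AGR3 were above background on 1 of 6 LNCaP arrays each, so that among the 7 genes AGR2 alone was above background on all arrays of both lines. LGALS4 rose with Dox in LNCaP and did not pass on the Dox-labelled 22Rv1 arrays.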

How the results depend on the processing

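Across 29 alternative settings, 18 of which left out 1 array, 972 values of members were recomputed. Of these, 925 kept their side of the threshold, 45 lost the call, 2 gained it and 0 calls reversed. Some values that did not pass changed sign between settings, such as TFF2 with Dox in LNCaP (-0.838 to 0.166). Members called with Dox in LNCaP fell from 2 to 1 with the deposited log2 matrix, no background correction, an offset of 50, the mean of a gene's probes, or the within-group axis taken out, each time by loss of AGR2. In the knockdown 4 members were called, in place of 7, with the deposited matrix, no background correction or an offset of 50. Of all genes, median scaling called 2212 with Dox in LNCaP, 1927 in the knockdown and 1707 in the interaction. Array weights called 6582 on the Dox-labelled 22Rv1 arrays, 4921 in the knockdown and 4673 in the interaction. Taking out the axis called 243 with Dox in LNCaP and 2558 between M4 scramble and 22Rv1. Causes were not tested.

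Leaving out 1 array gave 2468 to 4246 genes called on the Dox-labelled 22Rv1 arrays, 2542 to 3126 in LNCaP, 2307 to 2869 in the knockdown, 3918 to 4575 for M4 against 22Rv1, 6144 to 6541 for LNCaP against 22Rv1 and 1961 to 3171 in the interaction. Members called were then 6 to 6, 2 to 2, 5 to 7, 5 to 7, 8 to 8 and 7 to 7. The share of calls that were higher moved from 36.8% to 25.3% under median scaling on the Dox-labelled 22Rv1 arrays, from 55.7% to 34.9% in the knockdown, from 47.1% to 34.2% between LNCaP and 22Rv1 and from 50.1% to 38.5% in the interaction. With the axis taken out it moved from 39.1% to 69.5% with Dox in LNCaP. Median scaling put the median of all genes at -0.148, -0.106 and -0.124 on the Dox-labelled 22Rv1 arrays, with Dox in LNCaP and between the lines. Without background correction the change on the Dox-labelled 22Rv1 arrays was -1.21 for CDH17 and -0.63 for VIL1, and GP2 fell by 4.07 in the knockdown, with all 3 calls kept.

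Arrays of the same replicate number did not deviate together (r from -0.11 to 0.11), so the numbers do not pair samples. With the replicate block 3158, 3542, 2981, 4635, 6718 and 2306 genes were called in the 6 comparisons, and AGR2 in the knockdown was the 1 member call lost. Probes near background limit what could be seen of AGR3, TFF1 and, in LNCaP, of most members.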

Other observations

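Other gut genes changed on the same arrays, given here as values, from lists chosen with earlier results known. Counts stand beside the shares of all genes that passed, higher and lower. These were 9.14% and 15.7% on the Dox-labelled 22Rv1 arrays, 10.9% and 17% with Dox in LNCaP, and 13% and 10.3% in the knockdown. For M4 scramble against 22Rv1 they were 14.7% and 20.7%, and for LNCaP against 22Rv1 23.7% and 26.6%. Nothing particular to a list is read from its count. Of 21 genes of the gut surface and adhesion, 15 were tested. On the Dox-labelled 22Rv1 arrays 3 rose and 5 fell. EPCAM, an adhesion molecule of epithelia, rose by 2.31 (SE 0.15; its other probes gave 2.72 and 2.86) and TSPAN1, a tetraspanin, by 2.17 (SE 0.16), while CEACAM6 fell by 2.19 (SE 0.33). In LNCaP with Dox 3 rose and 1 fell, and S100P, a calcium-binding protein, rose by 1.70 (SE 0.24). In the knockdown 2 rose and 4 fell: S100P rose by 1.68 (SE 0.24), CLDN4, a tight junction claudin, rose by 1.54 (SE 0.20) and TM4SF1 fell by 1.78 (SE 0.17). M4 scramble cells had 6 higher and 4 lower than 22Rv1, and LNCaP 4 higher and 5 lower.

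Of 13 crypt and stem cell genes, 9 were tested. In the knockdown 3 fell and 2 rose: CD44, a hyaluronan receptor, fell by 2.59 (SE 0.15) by 1 probe and by 1.08 by its other, SOX9, a transcription factor, fell by 2.21 (SE 0.17), while RNF43, an inhibitor of Wnt receptors, rose by 0.69 (SE 0.14). On the Dox-labelled 22Rv1 arrays 2 rose and 2 fell, and EPHB3, an ephrin receptor of the crypt, was at least 2.12-fold lower. With Dox in LNCaP 0 rose and 0 fell in this list. M4 scramble cells had 2 higher and 3 lower than 22Rv1, and LNCaP 1 higher and 6 lower.

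Of 13 stomach genes, 6 were tested: TMED6 fell on the Dox-labelled 22Rv1 arrays (-1.32, SE 0.14) and in the knockdown (-1.81, SE 0.14), where PGC, the pepsinogen gene, fell too (-0.89, SE 0.16). No stomach gene passed with Dox in LNCaP, 1 was higher and 1 lower in M4 scramble than in 22Rv1, and 1 was higher and 2 lower in LNCaP. Of 18 genes of pancreatic acinar cells, where GP2 coats zymogen granules, 4 were tested. SPINK1, a trypsin inhibitor, fell on the Dox-labelled 22Rv1 arrays (-0.87, SE 0.22), CEL, a lipase, fell with Dox in LNCaP (-0.54, SE 0.14) and AMY2A, an amylase, fell in the knockdown (-0.70, SE 0.16). M4 scramble had 1 lower than 22Rv1 and LNCaP 1 higher and 2 lower.

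Among 19 relatives and partners of the members, 12 were tested. SCIN, an actin-severing relative of villin, fell on the Dox-labelled 22Rv1 arrays (-0.92, SE 0.19) and in the knockdown (-1.19, SE 0.19). ADA, the enzyme that binds DPP4 at the cell surface, was at least 1.85-fold higher on the Dox-labelled arrays. DPP7, another dipeptidyl peptidase, rose by 0.55 (SE 0.15) in the knockdown, where 1 rose and 1 fell. With Dox in LNCaP PREP, a prolyl peptidase, fell by 0.62 (SE 0.16). M4 scramble had 1 higher and 2 lower than 22Rv1, and LNCaP 3 higher and 2 lower.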
